A study of Mus musculus with 4 samples.

Results

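Among 3002 single-cell barcodes from atherosclerotic mouse aorta that had been sorted on CD45 and kept as myeloid, 93 formed a cluster, numbered 9 in the deposited annotation, whose leading genes were those of fibroblasts. The members were all barcodes carrying that cluster number, 3.10% of the total (exact 95% interval 2.51 to 3.78%). The mice were Apoe-/- animals, which lack the lipoprotein ligand apolipoprotein E and develop arterial plaques, and all had eaten a western diet for 13 weeks. Live aortic cells carrying CD45, the surface protein that marks leukocytes, were profiled by droplet-based 3' RNA sequencing in 4 libraries, 2 from each of 2 biological replicates, and the study states 6 mice in all. There was 1 group, with no untreated, wild-type or other-diet animals. The mice's age and sex, and which mice entered which library, are not stated in the sources at hand. Per the study's design text, the 3002 barcodes came from clusters that expressed macrophage genes (Lyz2, Csf1r, Adgre1, Fcgr1) or dendritic cell genes (Flt3, Itgax, Zbtb46), so the choice of clusters made use of leukocyte genes that are also described here.

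Fibroblasts of the artery lie mainly in the adventitia, the outer coat of the vessel. They secrete fibrillar collagens, the small proteoglycans that space collagen fibrils, and the microfibrils on which elastin is laid down, together with the proteases and inhibitors that remodel this matrix. They do not carry CD45. Macrophages and dendritic cells, which do, take up lipid and debris and present antigen, and many lie beside fibroblasts in the adventitia and in plaques.

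Cluster 9 held 8, 29, 26 and 30 barcodes in libraries 1-1, 1-2, 2-1 and 2-2, which was 3.39, 2.36, 4.73 and 3.05% of their cells. The 4 libraries held 236 to 1231 cells and 1698585 to 5954716 unique molecular identifiers (UMIs, each counting 1 captured RNA molecule). No barcode sequence was shared between libraries. Cluster 9 barcodes had a median of 8212 UMIs, within a range of 675 to 20741, against a median of 4462 in the other 2909 cells. The mitochondrial share of their counts had a median of 4.64%. Levels below are counts per 1000000 counts (CPM) over the summed UMIs of a group of cells, 783449 UMIs for cluster 9. A gene was counted as higher when its CPM in cluster 9 was at least 2 times that of all other cells in both biological replicates, with at least 50 CPM in cluster 9, and as lower by the mirror of that rule. By that rule 429 genes were higher, 2.67% of 16087 genes with a count, and 131 were lower, 0.814%. The clusters had been drawn from these same genes, so every difference between cluster 9 and other cells is a description without a test.

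Fibroblast genes defined the barcodes. Dcn (decorin, a proteoglycan that binds collagen fibrils; chromosome 10, 97479609 to 97518143 in GRCm38, plus strand) measured 14171, 12434, 12680 and 10185 CPM in cluster 9 of libraries 1-1, 1-2, 2-1 and 2-2, against 69.0, 71.1, 46.6 and 63.8 CPM in the other cells of the same libraries. Every cluster 9 value lay above every value of the other cells, and the pooled levels of 11913 and 63.1 CPM stood 189-fold apart. Dcn had at least 1 UMI in 89 of 93 barcodes (95.7%, exact 95% interval 89.4 to 98.8%), with a median of 86 UMIs and a highest value of 823. In the other cells 18.7% had a Dcn UMI, and their highest value was 69. After every cell was thinned to 1000 UMIs, the share with Dcn was 95.5% in cluster 9 and 5.36% in the other cells.

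Col1a1, the main chain of type I collagen (chromosome 11, 94936224 to 94953042, plus strand), measured 2355, 1458, 1228 and 875 CPM in cluster 9 of the same libraries, against 4.93, 7.72, 5.75 and 7.89 CPM in the other cells. Relative to their size, the libraries' cluster 9 levels spanned a wider range than for Dcn, with library 1-1 highest for both genes. The Col1a1 levels still did not overlap those of the other cells. Pooled values were 1294 and 7.02 CPM, 184-fold apart. A Col1a1 UMI was found in 88.2% of cluster 9 barcodes and in 2.92% of other cells, and after thinning in 59.6% and 0.815%. All 10 genes of the fibroblast marker list were higher by the rule. They are Dcn, Lum, Col1a1, Col1a2, Col3a1, Pdgfra, Mfap5, Dpt, Clec3b and Col14a1, and together they made up 1.90% of cluster 9's UMIs against 0.0142% of the others'.

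Collagen and proteoglycan genes were among the higher ones. Of 10 fibrillar collagens and their partners, 6 were higher and none lower, led by Col1a2 (1681 against 10.2 CPM) and Col3a1 (985 against 5.89 CPM), the second chain of type I and the type III chain. All 9 small leucine-rich proteoglycans were higher, among them biglycan (Bgn, 1492 against 9.46 CPM), lumican (Lum, 1319 against 8.47 CPM) and osteoglycin (Ogn, 568 against 4.83 CPM). Of 12 basement membrane genes 7 were higher, including the type IV chain Col4a1 (170 against 4.10 CPM), the type XV chain Col15a1 (171 against 3.31 CPM) and the laminin chain Lamb2 (138 against 1.72 CPM). Of 7 type VI and type VIII collagen genes, the 3 higher ones were the main type VI chains Col6a1, Col6a2 and Col6a3, at 108 to 199 CPM in cluster 9.

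Genes of elastic fibres were nearly all higher: 14 of 15 met the rule and none was lower. Loxl1, an oxidase that crosslinks elastin, had the largest fold of any gene named by rank, with 146, 156, 168 and 165 CPM in cluster 9 of the 4 libraries against 0.616, 0.175, 0.575 and 0.232 CPM in the other cells. Its pooled levels were 161 and 0.331 CPM, and the other cells' level rested on 5 UMIs. Elastin itself (Eln) measured 191 against 1.46 CPM, but in only 32 of the 93 barcodes, whereas the microfibril gene Mfap5 was found in 76. Fibulins Fbln1 (433 against 3.44 CPM) and Fbln5 (250 against 1.92 CPM) and the latent TGF-beta binding protein Ltbp4 (297 against 2.38 CPM) followed the same direction.

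Matrix turnover genes were present on both sides of the balance. All 16 listed proteases and inhibitors were higher. Mmp3, stromelysin 1, measured 3420, 2831, 1862 and 1923 CPM in cluster 9 against 6.16, 13.7, 5.46 and 9.97 CPM in the other cells. It was carried by 51 of 93 barcodes, fewer than Timp3, a protease inhibitor held in the matrix, found in 77 barcodes at 916 against 3.77 CPM. Timp2 was found in 85 barcodes at 1271 CPM, but the other cells held 440 CPM of it, a difference of 2.89-fold. Of 13 matricellular genes 6 were higher, led by Sparc (2414 against 14.6 CPM) and Ctgf (627 against 3.90 CPM). Fibronectin, Fn1, met neither rule at 193 against 240 CPM, and thrombospondin 1, Thbs1, was lower at 65.1 against 329 CPM.

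Mgp and Gsn, abundant genes outside the marker lists, showed how far the libraries could differ. Mgp, matrix Gla protein, an inhibitor of vascular calcification, measured 12494, 16230, 5273 and 9122 CPM in cluster 9 against 166, 73.0, 54.1 and 93.9 CPM in the other cells. The cluster 9 level in library 1-2 was about 3 times that in library 2-1, and all 4 were above the other cells. Gsn, gelsolin, an actin-severing protein that is also secreted, was steadier at 11044, 7164, 5913 and 7315 CPM against 224, 189, 158 and 190 CPM. Both were found in 90 of 93 barcodes.

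**Figure D1:**
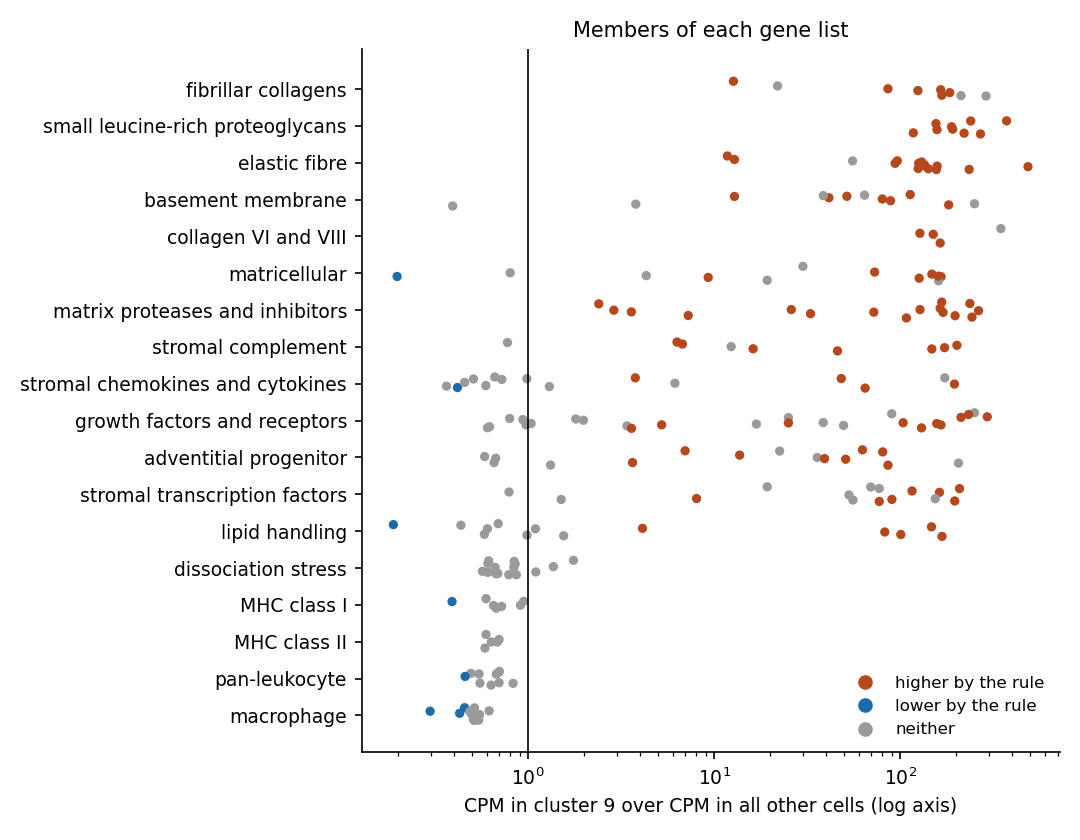
Each point is a gene, placed by its CPM in cluster 9 over its CPM in all other cells on a log axis, in rows by gene list; colours mark genes higher, lower or neither by the rule, and genes lacking a UMI on either side are not drawn. Proteoglycan, elastic fibre and collagen genes sit mostly near 100-fold and above, while class II, pan-leukocyte and macrophage genes all lie below 1.

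Complement and immune signalling genes of stromal cells were mixed. Of 9 complement genes 7 were higher, among them the C1 inhibitor Serping1 (1409 against 8.14 CPM), a brake on the cascade, and C3, its central component (476 against 29.4 CPM). C4b met neither rule at 162 against 209 CPM. Of 17 chemokines and cytokines 4 were higher (Cxcl12, Ccl11, Csf1 and Il33) and 1 was lower (Ccl8). Cxcl12, which holds leukocytes in stromal niches, measured 146, 257, 635 and 426 CPM in cluster 9 of libraries 1-1, 1-2, 2-1 and 2-2 against 7.39, 4.74, 5.46 and 7.89 CPM in the other cells. Its cluster 9 level was higher in both libraries of biological replicate 2 than in both of replicate 1. The monocyte attractants Ccl2 (767 against 1293 CPM) and Ccl7 (489 against 960 CPM) met neither rule and were more abundant in the other cells.

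Growth factor, progenitor and transcription factor genes were higher in part. Of 26 growth factor and receptor genes 10 were higher, led by the insulin-like growth factor binding proteins Igfbp7 (2102 against 12.7 CPM) and Igfbp5 (1264 against 5.43 CPM) and including the PDGF receptor Pdgfra (175 against 0.596 CPM). Igf1 was level at 199 against 192 CPM. Of 15 genes used to mark adventitial progenitor fibroblasts 8 were higher and 7 met neither rule. The higher ones included Ly6a (Sca-1, 564 against 80.8 CPM), Cd34 (216 against 4.24 CPM) and Pi16 (612, 720, 362 and 403 CPM in cluster 9 of the 4 libraries against 4.93, 9.65, 3.16 and 5.34 CPM). Dpp4 and Nt5e met neither rule, and their library ranges overlapped those of the other cells. Dpp4 ran from 7.78 to 26.6 CPM in cluster 9 against 17.2 to 24.7 CPM, and Nt5e from 0 to 7.78 against 3.16 to 13.3 CPM. Of 20 stromal transcription factors 7 were higher, among them Nfix (258 against 32.0 CPM), Nr2f2 (221 against 1.13 CPM), Prrx1 (185 against 2.05 CPM) and Ebf1 (138 against 1.79 CPM), while the cardiac regulators Tbx20 and Gata4 had no UMI. Of 13 lipid handling genes 5 were higher, among them the lipid phosphatase Plpp3 (433 against 2.58 CPM) and the receptor Lrp1 (495 against 120 CPM), and the scavenger receptor Cd36 was lower (24.3 against 128 CPM). Apoe, disrupted in these mice, measured 19.1 against 31.6 CPM, and 3' reads need not span the disrupted part.

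The 30 genes with the highest folds among those above 100 CPM ranged from 182-fold (Dpep1) to 486-fold (Loxl1), and 11 of the 30 belong to the collagen, proteoglycan, elastic fibre, basement membrane, matricellular and protease lists. Those lists do not hold every matrix gene, and the share of all genes that falls in them was not taken. The other ranked genes included the fibulin Fbln7 (193 against 0.596 CPM) and Sfrp2, a secreted modulator of Wnt signalling (784 against 3.97 CPM). Also among them were the oxygen-binding globin Cygb (742 against 3.71 CPM) and the nuclear factor Foxp2 (124 against 0.596 CPM). The 10 lowest genes were of another sort. They were the globins Hbb-bs, Hbb-bt and Hba-a1, the neutrophil genes S100a8 and S100a9, and Cd36, Thbs1, Lyve1, Clec10a and F13a1, which macrophages or monocytes express. Of the 2909 other cells, only 209, 40 and 60 had a UMI of these globins, and 112 and 108 of S100a8 and S100a9. Neutrophil marker genes made up 2.11% of UMIs in cluster 7, 0 to 0.0154% in the remaining clusters and 0.00523% in cluster 9. The low rank of S100a8 and S100a9 thus does not set cluster 9 apart from most clusters. The globin genes are near-identical copies whose counts can be split, and their library ranges overlapped between cluster 9 and the other cells. The range of Lyve1 overlapped too, with library 1-1 at 160 CPM in cluster 9 against 153 CPM in its other cells. Of 15 genes induced by tissue digestion none met either rule, beside 2.67% of all 16087 genes higher and 0.814% lower. The 429 higher and 131 lower genes came from 3342 genes with at least 50 CPM on either side, as did all 15 of these. Whether 0 of 15 differs from those shares was not tested. The 15 genes made up 2.46% of UMIs in cluster 9 and 3.16% in the other cells. Over the 4 libraries 3 of them lay below the other cells without overlap: Atf3 (1078 to 1489 against 1891 to 2537 CPM), Dusp1 (1462 to 1916 against 2670 to 3179 CPM) and Zfp36 (1583 to 2429 against 3147 to 3679 CPM). Ier2 lay above them (879 to 1254 against 400 to 705 CPM).

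Other stromal kinds were looked for in each barcode. A barcode was said to carry a kind when at least 3 genes of that kind's marker list had a UMI. The fibroblast kind was carried by 86 of 93 barcodes (92.5%, exact 95% interval 85.1 to 96.9%), with 6 of 8, 29 of 29, 22 of 26 and 29 of 30 in libraries 1-1, 1-2, 2-1 and 2-2. In the other cells it was carried by 62 of 2909 (2.13%), and after thinning by 82.0% of cluster 9 barcodes and 0.349% of other cells. The 7 remaining cluster 9 barcodes were shallow, at 675 to 2570 UMIs. Fibroblast genes made up a median of 1.59% of a cluster 9 barcode's UMIs. Outside cluster 9, 11 cells in 7 clusters had 5 or more fibroblast genes, and in none did those genes reach that median; their shares ran from 0.0546 to 0.930%.

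Endothelial and mesothelial markers were at or near 0. No cluster 9 barcode carried the endothelial kind, which at 0 of 93 allows a share of up to 3.89%, and the 10 endothelial markers had 15 UMIs in all. The junction genes Cdh5, Cldn5 and Esam, the receptor Tie1 and the sialomucin Emcn were at 0. The mesothelial markers had 1 UMI in all, with 8 of 9 at 0, and no barcode carried the kind. No barcode carried the Schwann cell or adipocyte kind either. The chondrocyte list had 2 members higher, Cytl1 and Comp, while the cartilage genes Acan, Chad, Matn3 and Hapln1 were at 0 and no barcode carried that kind.

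Among smooth muscle genes, Acta2 and Tagln were concentrated in few barcodes. Acta2, smooth muscle actin, measured 399, 23.3, 5.25 and 127 CPM in cluster 9 of libraries 1-1, 1-2, 2-1 and 2-2, against 2.46, 5.97, 4.03 and 4.64 CPM in the other cells. Library 2-1 lay within the range of the other cells and the other libraries above it, and 77.1% of the 70 Acta2 UMIs sat in 5 barcodes. Tagln, an actin-binding protein, had 48 UMIs in 12 barcodes, and both genes were higher by the rule. The smooth muscle kind was carried by 14 barcodes (15.1%, interval 8.48 to 24.0%) and by 5 of the 2909 other cells, and after thinning by 3.37% of cluster 9. Of those 14, 10 had at least 5 fibroblast genes and 6875 to 17917 UMIs. The other 4 had fewer fibroblast genes and 1226 to 1904 UMIs: in library 1-1, 2 of them had 22 and 6 Acta2 UMIs, no Dcn UMI and mitochondrial shares of 0.0536 and 0.408%, and in library 2-2 the remaining 2 had 6 and 5 Acta2 UMIs and no UMI of any pan-leukocyte or macrophage gene. Myh11, the smooth muscle myosin that defines the contractile cell, had 1 UMI in all of cluster 9.

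The pericyte list split in the same way as the chondrocyte list. The potassium channel subunits Kcnj8 (128 against 0.529 CPM, 43 barcodes) and Abcc9 (142 against 0.662 CPM, 47 barcodes) and the mitochondrial subunit Ndufa4l2 (94.5 against 0.596 CPM) were higher. Rgs5, Higd1b and Vtn were at 0, and Cspg4 and Notch3 had 5 and 3 UMIs. The kind was carried by 18 barcodes, and after thinning by none.

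**Figure D2:**
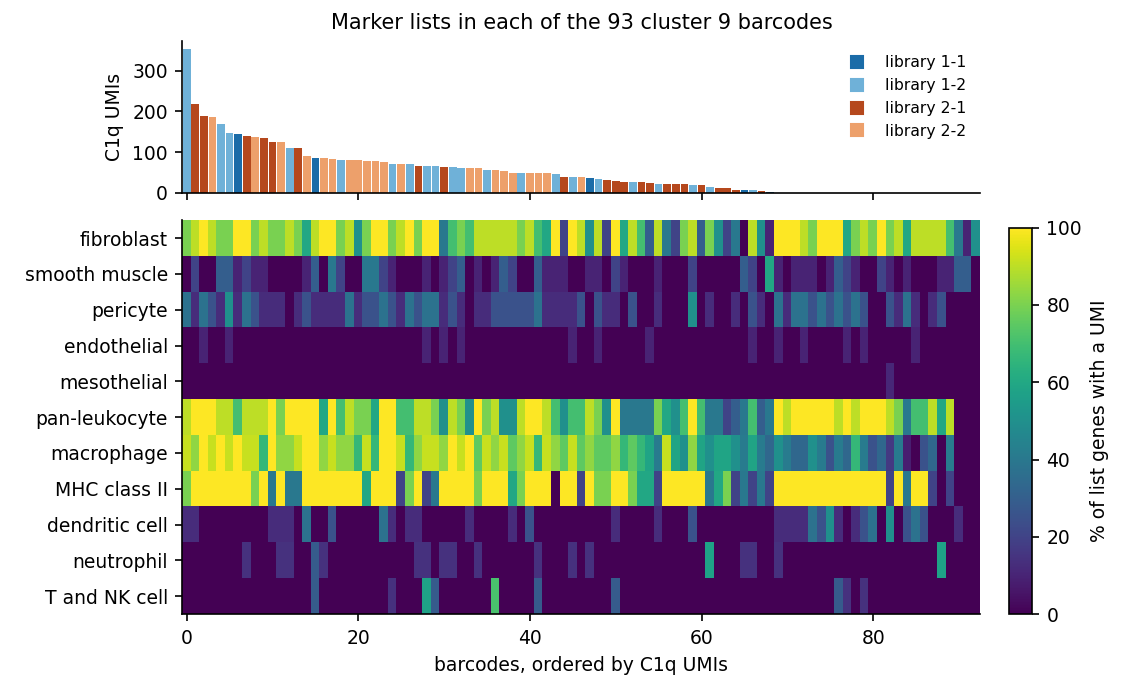
Columns are the 93 barcodes of cluster 9, ordered by their summed C1qa, C1qb and C1qc UMIs (bars, coloured by library); colour below gives the percentage of each marker list's genes with a UMI in that barcode. Fibroblast and pan-leukocyte rows are filled in the same columns, and endothelial and mesothelial rows are nearly empty.

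Leukocyte RNA was found in the same barcodes as the fibroblast RNA. Ptprc, which encodes CD45 (chromosome 1, 138062861 to 138175708, minus strand), measured 293, 257, 205 and 223 CPM in cluster 9 of libraries 1-1, 1-2, 2-1 and 2-2, against 530, 500, 459 and 448 CPM in the other cells. The 2 sets did not overlap, with cluster 9 at 0.493 times the other cells when pooled. A Ptprc UMI was found in 59 barcodes (63.4%, interval 52.8 to 73.2%), and all 59 also had a Dcn UMI. The share was 70.1% in the other cells, and after thinning 20.2% in cluster 9 and 35.3% in the others.

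Tyrobp, a signalling adaptor of myeloid and natural killer cells (chromosome 7, 30413760 to 30417585, plus strand), measured 1171, 832, 1081 and 802 CPM in cluster 9 against 1781, 1629, 1775 and 1559 CPM in the other cells. Each cluster 9 library was below every value of the other cells, and 93.5% of barcodes held a Tyrobp UMI (95.1% of the other cells; 55.1 and 76.5% after thinning). Lyz2, the lysozyme of macrophages and monocytes (chromosome 10, 117277331 to 117282321, minus strand), measured 3020, 6114, 5152 and 4429 CPM in cluster 9 against 9964, 10067, 10016 and 9375 CPM in the other cells. It was found in 88.2% of cluster 9 barcodes and 91.3% of other cells. C1qa, a chain of complement C1q made by tissue macrophages (chromosome 4, 136895917 to 136898803, minus strand), measured 1716, 2322, 2817 and 2391 CPM in cluster 9 against 4565, 4457, 5028 and 4701 CPM in the other cells. It was found in 68 barcodes (73.1%) and in 80.3% of the other cells. Pooled, Tyrobp, Lyz2 and C1qa stood at 0.552, 0.510 and 0.516 times the other cells, and 62 barcodes held UMIs of Dcn, Tyrobp, Lyz2 and C1qa together.

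**Figure D3:**
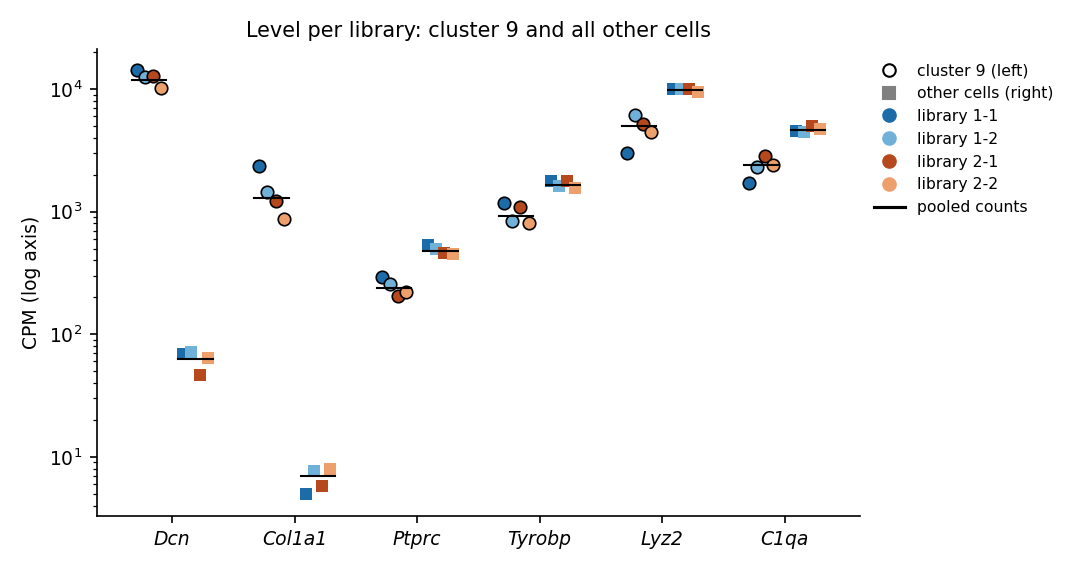
Level of each gene in CPM on a log axis in each of the 4 libraries, for cluster 9 (circles, left) and all other cells (squares, right); lines give the pooled value. Dcn and Col1a1 are 189-fold and 184-fold higher in cluster 9, and the 4 leukocyte genes lie at about 0.5 times the level of the other cells in cluster 9, without overlap.

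Over whole lists the levels were also lower. The 10 pan-leukocyte genes made up 0.518% of cluster 9's UMIs against 0.822% of the others', with a median fold of 0.654, beside a median of 0.976 over all genes with at least 50 CPM on either side. One of them, Cd53, was lower by the rule. The 12 macrophage genes made up 1.41% against 2.74%, with a median fold of 0.509, and Csf1r, Adgre1 and Mrc1 were lower by the rule. With scaling by the trimmed mean of M values (TMM), which shifted every fold by -0.19 on the log2 scale, 3 pan-leukocyte and 10 macrophage genes were lower. No pan-leukocyte, macrophage or class II gene was higher under either scaling. The pan-leukocyte kind was carried by 89 of 93 barcodes (95.7%) and 96.1% of the other cells, and after thinning by 65.2 and 89.1%.

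The fibroblast and pan-leukocyte kinds were carried together by 84 of 93 barcodes (90.3%, interval 82.4 to 95.5%), and the barcodes that lacked 1 of them were shallow. The 2 with the fibroblast but not the pan-leukocyte kind had 1078 and 1904 UMIs, and the 5 with the reverse had 1226 to 2570. Across the 86 fibroblast barcodes the share of UMIs from fibroblast genes and the share from pan-leukocyte genes ran in opposite directions (Pearson r = -0.45, Spearman rho = -0.47). Both are shares of 1 total, whose part in the correlation was not tested, and barcodes of a library share their preparation, so no p-value is given. Neither share followed depth closely: with total UMIs, r was 0.13 for the fibroblast share and -0.03 for the pan-leukocyte share. The barcode richest in Dcn (823 UMIs, library 2-1, 20382 UMIs in all) had no Ptprc UMI but 12 of Tyrobp and 140 of C1q.

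**Figure D4:**
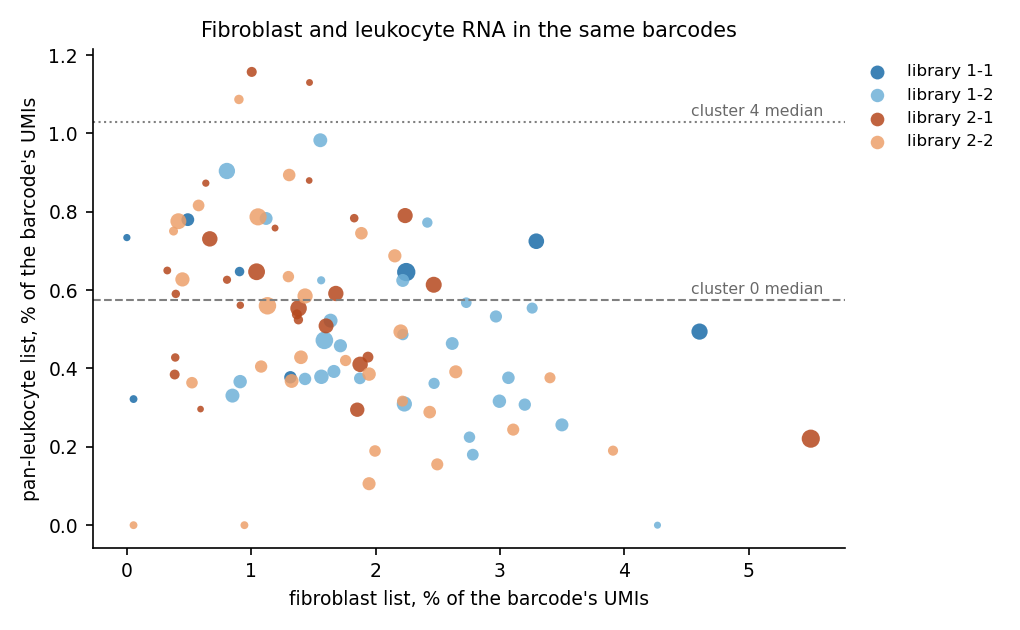
Each point is a cluster 9 barcode, by the percentage of its UMIs from the 10 fibroblast genes and from the 10 pan-leukocyte genes; colours mark libraries, larger points have more UMIs, and lines give the pan-leukocyte medians of clusters 0 and 4. Most barcodes carry both, with a median of 1.59% fibroblast and 0.494% pan-leukocyte, below the 0.574% of cluster 0 and the 1.03% of cluster 4.

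The leukocyte RNA was not the same in every barcode. Summed over C1qa, C1qb and C1qc, 22 barcodes had no UMI, 2 had 1, and 69 had 3 to 354 with a median of 60. This division was made after the values were seen. The 24 barcodes under 3 were not shallower, with a median of 8893 UMIs against 8150 in the other 69, and they came from every library (3, 8, 4 and 9 barcodes in libraries 1-1, 1-2, 2-1 and 2-2). Fibroblast genes made up a median of 2.08% of their UMIs and 1.47% of those of the 69. They were not without leukocyte RNA: 18 had a Ptprc UMI and 20 a Tyrobp UMI, and pan-leukocyte genes made up a median of 0.550% of their UMIs, against 0.464% in the 69.

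The 69 C1q barcodes held the C1q genes at a lower level than clusters 0, 1 and 2, the 3 largest. In these clusters 99.8, 98.0 and 100% of cells had 3 or more C1q UMIs. C1qa measured 3382 CPM in the 69 barcodes, against 7602, 6091 and 6979 CPM in clusters 0, 1 and 2, and Lyz2 measured 6051 CPM against 13396, 10419 and 12352 CPM. Over the 3 C1q genes and Lyz2 the 69 barcodes stood at 0.445 to 0.610 times these clusters. Not every cluster was as rich. The C1q genes made up 0.867% of UMIs in the 69 and 1.88, 1.57 and 1.75% in clusters 0, 1 and 2. The remaining clusters ran from 0.105% (cluster 12) to 2.05% (cluster 3), with cluster 6 at 0.981%.

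Pf4, Lyve1, Mrc1 and Ctss did not keep the C1q and Lyz2 ratio to clusters 0, 1 and 2, and together did not match any 1 of these clusters. Among other macrophage genes, Csf1r, Adgre1 and Fcgr1 stood at 0.355, 0.389 and 0.389 times cluster 0, and Cd68 and Aif1 at 0.683 and 0.641 times. These levels are pooled over the 69 barcodes and do not describe any single barcode. Lyve1 rested on 40 UMIs in 14 barcodes, with 12 of the UMIs in library 1-1. The chemokine Pf4 measured 935 CPM in the 69 barcodes, against 3055, 463 and 2930 CPM in clusters 0, 1 and 2. The hyaluronan receptor Lyve1 measured 71.8 CPM against 779, 15.2 and 324 CPM, and the mannose receptor Mrc1 294 CPM against 1570, 372 and 1600 CPM. Pf4 and Lyve1 thus lay below clusters 0 and 2 and above cluster 1, and Mrc1 below all 3. The protease Ctss (1188 CPM against 1116, 2738 and 1154 CPM) was close to clusters 0 and 2 and below cluster 1.

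The 24 barcodes under 3 C1q UMIs held most of the UMIs of some genes, each in part of the barcodes. Cd209a, a lectin of monocyte-derived and conventional type 2 dendritic cells, had 118 of its 133 cluster 9 UMIs there, in 10 of the 24, at 522 CPM against 837 CPM in cluster 4, where 73.6% of cells had a Cd209a UMI. Plac8, abundant in monocytes, had 178 of 235 UMIs there, in 14 of the 24 (787 CPM against 766 CPM in cluster 4). Cluster 4 was not the cluster richest in monocyte genes. A list of such genes made up 0.118% of UMIs in the 24, 0.123% in cluster 4 and 0.291% in cluster 5. The lymph-node homing receptor Ccr7 had 22 of 28 UMIs in the 24, in 3 barcodes. Lyve1 was at 0. Lyz2 had a median of 1 UMI and was found in 16 of the 24, against a median of 33 in the 69 C1q barcodes, and 77.4% of its UMIs in the 24 sat in 5 barcodes.

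Antigen presentation genes divided the 24 again. With Cd74, H2-Aa, H2-Ab1 and H2-Eb1 summed, 16 barcodes had 89 to 808 UMIs and 8 had 0 to 4, with none between. The 16 had a median of 10876 UMIs and the 8 a median of 4657. Cd209a was found in 9 of the 16 and in 1 of the 8. One barcode of library 2-2, with 11637 UMIs and none of C1q, held 116 of the 118 UMIs of Retnla, a secreted protein of alternatively activated macrophages and monocytes. Over all of cluster 9 the class II list met neither rule for any of its 5 genes and made up 2.24% of UMIs against 3.48% in the other cells.

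**Figure D5:**
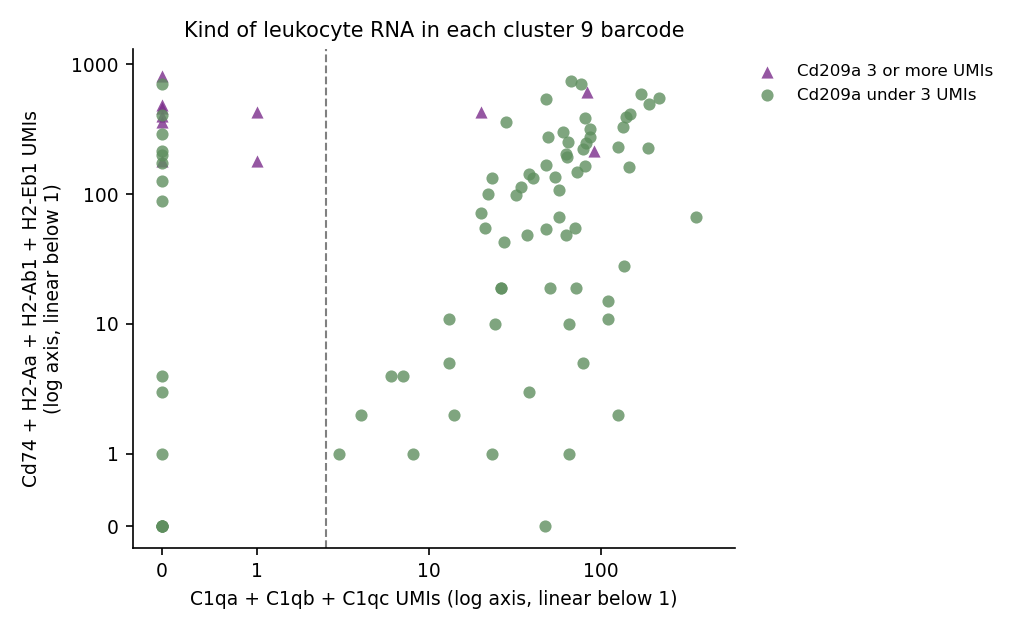
Each point is a cluster 9 barcode, by its C1q UMIs and its class II UMIs on log axes that are linear below 1; triangles have 3 or more Cd209a UMIs and the dashed line separates barcodes under 3 C1q UMIs. Of 11 barcodes with 3 or more Cd209a UMIs, 8 have 0 or 1 C1q UMI and 3 have 20 to 91.

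Other leukocyte kinds were carried by few barcodes. The dendritic cell kind was carried by 7 of 93 (7.53% against 6.33% of the other cells), the T and NK cell kind by 2 (2.15% against 1.20%), the neutrophil kind by 2 (2.15% against 3.61%) and the B cell kind by none. Of UMIs, T and NK cell genes made up 0.00740% in cluster 9 and 0.00588% in the other cells, and neutrophil genes 0.00523% against 0.0501%. The neutrophil share was 2.11% in cluster 7 and at most 0.0154% in any other cluster. In cells not defined by these genes, a Dcn UMI was seen in 19.8% of cluster 0, at a median depth of 4404 UMIs. A C1qa UMI was seen in 9.09% of the 44 cells of cluster 12 and 31.2% of the 125 cells of cluster 7, where 3 and 33 cells had 3 or more C1q UMIs, at median depths of 5176.5 and 1601 UMIs. Whether those cells, or a cluster 9 barcode, held 1 cell, 2 cells or a cell with RNA of others attached was not tested.

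Among the fibroblast barcodes themselves, some genes were held by a minority. Cytl1, a secreted protein known from cartilage, had 341 UMIs, at 79.8, 774, 241 and 345 CPM in cluster 9 of libraries 1-1, 1-2, 2-1 and 2-2, against 4.31, 4.21, 1.44 and 2.09 CPM in the other cells. All 341 came from 24 barcodes, 60.7% of them from 5. Over the 86 fibroblast barcodes and 223 genes compared, the gene whose log level ran most like Cytl1 was the protease inhibitor Serpine2 (r = 0.68), followed by Mgp (0.44) and the sulfatase Sulf1 (0.43). The genes most like Pi16 were Clec3b and Mfap5 (0.49 each), Pcolce (0.45) and Cd34 (0.44).

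Mgp and Pi16 were set side by side in the 12 fibroblast barcodes with 10 or more Cytl1 UMIs, which came from libraries 1-2, 2-1 and 2-2 (6, 3 and 3 barcodes), and the other 74. Mgp was chosen for its likeness to Cytl1 in these barcodes, so its levels only describe that likeness. It measured 31989, 8114 and 13051 CPM in the Cytl1-rich barcodes of libraries 1-2, 2-1 and 2-2, against 10751, 4628 and 8285 CPM in the other fibroblast barcodes of those libraries. Pi16 measured 256, 337 and 226 CPM against 881, 381 and 430 CPM. A Pi16 UMI was found in 9 of the 12 (75%) and 51 of the 74 (68.9%), and 35.6% of all Pi16 UMIs in cluster 9 sat in 5 barcodes. Dcn was similar, at 11043 against 12288 CPM.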

How the data were processed

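The deposited data were whole-number UMI counts per gene and cell with a table of cell annotation. Per the labels' protocols, libraries were made with the 10x Genomics 3' system and mapped to mm10 with Cell Ranger 3.0.2; Seurat 3.1.1 is named in the submitters' processing notes. The deposited mitochondrial share is a percent of each cell's counts. The authors' cluster numbers were used as deposited; 0 columns could not be mapped to a library. The deposited log-normalized table was not used. The sources used here do not say how doublets were handled before deposit, and no doublet caller was run.

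UMIs were summed over cells per library, biological replicate and cluster and divided by the sum to give CPM (python 3.11.15, pandas 2.3.3, numpy 2.4.6). Counts of 429 higher and 131 lower genes used a 2-fold minimum in both biological replicates and 50 CPM on the higher side; the counting script was tested on simulated data. No p-value is given. Shares have exact Clopper-Pearson 95% intervals (scipy 1.17.1), which cover counting error only; shares were also taken after drawing 1000 UMIs per cell, which left out 4 cluster 9 barcodes and 333 others. TMM scaling used edgeR 4.0.16. Of 18825 gene symbols, 18118 were found in GENCODE M21 on GRCm38, the source of coordinates. Levels of different genes come from 3' tags and are not scaled by length. The 4 libraries came from 2 biological replicates, whose separate mice are not identified, so the spread between libraries may be partly technical.

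The members and gene lists were chosen with earlier results of these data known. Genes named were the 30 highest by fold with at least 100 CPM, the 10 lowest, the marker lists, and up to 6 members of other lists by CPM. Ccl11, Csf1, Il33, Dpp4, Nt5e, Cytl1, Comp, Serpine2, Plac8, Retnla, Lyve1, Apoe, Tbx20, Gata4, Sulf1, Mgp, the neighbours of Cytl1 and Pi16 and the C1q, class II and Cytl1 divisions were chosen after their values were seen.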

Additional observations from a re-analysis of the deposited data

Results flagged for a closer look

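Of 19 per-library values looked at in cluster 9, 3 had 1 library standing apart from the other 3 by the Dixon criterion, which chance alone meets in about 1 in 20 groups. In library 1-1, 75% of the 8 cluster 9 barcodes had a Dcn UMI, against 96.2 to 100% in the other libraries; the 2 without it were the shallow barcodes with Acta2 and Tagln. The median mitochondrial share was also lowest in library 1-1, at 3.49% against 4.51 to 4.71%. The median depth was lowest in library 2-1, at 4441.5 UMIs against 8326.5 to 9058, and 11 of its 26 cluster 9 barcodes had under 3000 UMIs. The share of cluster 9 barcodes with Dcn was 97.6% without library 1-1 and 95.5% without library 2-1.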

How the results depend on the processing

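Of 82 values of 20 results under other settings, 67 stayed within the spread between libraries (for counts, within 1.5 times) and 15 moved. The 67 include endothelial and mesothelial shares of 0, which only the setting of 2 list genes could have raised. The spread between libraries is wide for smooth muscle, carried by 15.1% of barcodes as reported, 3.37% with 1000 UMIs drawn, 1.08% at 5 list genes and 26.9% at 2. The number of higher genes was 429, and 1868 with no CPM minimum. The number of lower genes was 131, and 257 with TMM scaling, 2189 with no CPM minimum and 10 at 4-fold. With 1000 UMIs drawn per cell, the share of cluster 9 with a UMI was 59.6% for Col1a1, 20.2% for Ptprc, 55.1% for Tyrobp and 73.0% for Lyz2, and the pan-leukocyte and macrophage kinds were carried by 65.2 and 74.2%, since fewer UMIs were read. Asking for 2 UMIs gave 49.5% for Ptprc, 88.2% for Tyrobp and 81.7% for Lyz2, and asking for 5 list genes gave 83.9% for pan-leukocyte and 82.8% for macrophage. Leaving out 1 library at a time gave 402 to 430 higher and 114 to 171 lower genes. Levels then ran from 11658 to 12774 CPM for Dcn, 1182 to 1503 for Col1a1, 226 to 246 for Ptprc, 862 to 972 for Tyrobp, 4490 to 5319 for Lyz2 and 2275 to 2481 for C1qa. Shares with a UMI ran from 93.8 to 97.6% for Dcn, 82.8 to 95.5% for Col1a1, 60.3 to 70.1% for Ptprc, 92.2 to 95.2% for Tyrobp, 85.9 to 90.5% for Lyz2 and 68.7 to 75.3% for C1qa. Kinds ran from 89.1 to 95.5% for fibroblast, 9.52 to 20.9% for smooth muscle, 95.3 to 96.8% for pan-leukocyte and 90.6 to 96.8% for macrophage. No barcode carried the endothelial or mesothelial kind, so leaving out a library could only return 0 for them. Under TMM, 1 of 32 list medians, that of lipid handling, changed side (1.10-fold, and 0.963-fold with TMM). Leaving out the barcodes under 3 fibroblast genes or under 1000 UMIs, chosen after seeing the data, moved none of 18 values. The endothelial and mesothelial values among the 18 could only stay at 0. Dcn and Col1a1 belong to the list behind the first of these filters. Their values after it were therefore partly set by the filter, with Dcn found in 100% of the barcodes left. No paired analysis was possible because no result comes from a test; cluster 9 and the other cells are set side by side within each library. With 93 barcodes, a kind seen in none could still be carried by up to 3.89%.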
